A study of Rattus norvegicus with 9 samples.

Results

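RNA from rat hippocampus exposed to ketone bodies for 6 hours was set against RNA from hippocampus exposed for 1 hour, to describe which transcripts faded, persisted or built up as the exposure went on. The comparison holds 6 of the series' 9 arrays: 3 from ketone bodies for 1 hour and 3 from ketone bodies for 6 hours. The members were taken by their titles alone, and the other 3 arrays, controls kept in artificial cerebrospinal fluid without ketone bodies, served as the background. The labels name neither the ketone bodies used nor their dose, nor the strain or age of the rats, and no other treatment, so all groups share only the tissue and, as far as stated, the fluid. The controls carry no exposure time, so hours in the fluid and hours with ketone bodies cannot be told apart between the exposures. Nothing in the labels says that replicates came from separate animals or cultures, and the p-values therefore cover only array-to-array spread.

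The labels call the source hippocampal neurons, and the arrays also measured other cell types. All 12 pan-neuronal markers on the array lay above the filter on low signal, as did 10 of 10 astrocyte markers, 11 of 11 oligodendrocyte markers and 12 of 14 microglial and macrophage markers, with Cd68 and Ptprc below it. Fewer passed of the choroid plexus and ependymal markers (7 of 10) and of the blood markers (3 of 7). The filter is a rank that kept 18625 of 31042 probe sets, so passing it does not by itself show that a gene was expressed. Some glial markers lay far above its level of 5.21, such as Aqp4 at 11.78 and Mobp at 11.96 in control. By such astrocyte and oligodendrocyte markers the RNA was that of mixed tissue. In bulk RNA, fewer cells of a type and less RNA per cell cannot be told apart.

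Ketone bodies are small acids that the liver makes from fatty acids during fasting, and brain cells burn them when glucose is short. They enter cells through monocarboxylate transporters (Slc16a1 and Slc16a7), are oxidised by Bdh1 and are activated by Oxct1 on the way to the citric acid cycle. Transcripts differ in how fast they answer a stimulus: immediate early genes and chemokines can be switched on within the first hour because their factors are already present, whereas transcripts for mitochondria and ribosomes are abundant, long lived and slow to move. A pair of time points can show a fast signal that has decayed, one that is held and one that is still growing.

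Signals were compared as log2(signal + 16) after quantile normalization, and all levels and differences below are on that scale. Correlation within a group ran from 0.949 to 0.987 over the probe sets tested, and between 1 h and 6 h arrays from 0.957 to 0.987. On the first principal component, with 45% of the variance, the 2 farthest arrays were 1 h replicate 3 (score 35.5) and 6 h replicate 1 (39.4), against -27.7 to 11.0 on the others. The log2 ratio of 3' to 5' beta-actin signal, which is higher where RNA is more degraded or labelled copies are shorter, was 1.38, 2.13 and 2.00 on the 1 h arrays and 2.55, 1.90 and 1.02 on the 6 h arrays, against 1.26 to 1.41 in controls. Its mean was 1.84 ± 0.40 (SD, n = 3) at 1 h and 1.82 ± 0.77 at 6 h (difference -0.01, exact two-sided permutation p = 1, where 3 against 3 cannot go below 0.1).

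No transcript passed the test of 6 h against 1 h. By limma, 0 of 18625 probe sets (0%) had an adjusted p below 0.05, and the lowest adjusted p was 0.689. At an unadjusted p below 0.05 there were 507 probe sets (2.72%), 244 higher at 6 h (1.31%) and 263 lower (1.41%), where 931 would be expected if no transcript differed. The 6 h arrays lay wholly above the 1 h arrays for 661 probe sets (3.55%) and wholly below them for 753 (4.04%).

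The intervals show what these arrays could and could not resolve. The 95% interval of the difference had a median half-width of 0.34, and it lay within 0.5 in either direction, a fold of 1.41, for 11078 probe sets (59.5%). It lay within 1, a fold of 2, for 17749 (95.3%), which leaves 876 whose interval reached past that size. The estimate itself passed 1 for 11 probe sets and 0.5 for 296 (1.59%).

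Transcripts that answered ketone bodies at all were found from the mean of both exposures against control, a comparison whose estimate does not depend on the difference between the exposures. By limma 9 probe sets passed an adjusted p of 0.05 (0.0483% of those tested), 8 higher (0.043%) and 1 lower (0.00537%). For 1 h alone 6 passed (0.0322%) and for 6 h alone 5 (0.0268%); these comparisons share the control arrays. Of the higher ones, 6 carried a single gene name: the chemokines Ccl2, Cxcl10, Cxcl11 and Cxcl1, the immediate early gene Csrnp1 and the metallothionein Mt2A. Ccl2 passed in every setting run for this comparison, and it was the only named gene that passed without control replicate 1, 2 or 3.

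For 3 of these chemokines the stretch in front of the gene is shown because it holds the same short motif, the letters of an NF-kB type site. The 250 bases before the start come from RefSeq promoters of the rat build GRCr8, each 5′ to 3′ on the gene's strand, with GGAATTTCC or its reverse complement GGAAATTCC in capitals. Cxcl10 is at chr14:15988816-15989065 on the + strand, with the match 186 bases before the start. Cxcl11 is at chr14:15973478-15973727 on the + strand, with the match 73 bases before it. Cxcl1 is at chr14:17479322-17479571 on the - strand, with the match 83 bases before it.
Cxcl10: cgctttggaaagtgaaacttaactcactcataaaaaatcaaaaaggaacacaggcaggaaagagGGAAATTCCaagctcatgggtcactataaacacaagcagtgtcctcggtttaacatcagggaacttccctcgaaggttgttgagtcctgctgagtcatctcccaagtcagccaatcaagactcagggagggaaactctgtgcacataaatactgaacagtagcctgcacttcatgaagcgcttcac
Cxcl11: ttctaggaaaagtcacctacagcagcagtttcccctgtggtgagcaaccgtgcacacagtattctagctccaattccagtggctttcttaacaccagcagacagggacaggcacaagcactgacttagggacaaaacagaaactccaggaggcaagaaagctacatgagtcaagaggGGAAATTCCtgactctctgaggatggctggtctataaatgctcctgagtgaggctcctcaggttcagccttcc
Cxcl1: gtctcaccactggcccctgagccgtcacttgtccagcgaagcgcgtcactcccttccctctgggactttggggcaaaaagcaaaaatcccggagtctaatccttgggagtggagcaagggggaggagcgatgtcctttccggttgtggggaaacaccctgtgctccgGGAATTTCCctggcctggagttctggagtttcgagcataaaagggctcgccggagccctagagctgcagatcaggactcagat
The motif was chosen after these sequences were seen. Searched on both strands, it occurred in 96 of 33469 such windows (0.287%), and 4 of the 6 named responders were in the table, 3 of them with a match and Mt2A without. A match of letters is a description, not a site shown to be bound.

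Ccl2, which encodes a chemokine that draws monocytes, was the single-gene responder whose 6 h arrays all lay above its 1 h arrays. Its levels were 6.79, 6.79 and 6.50 in control, 7.92, 8.18 and 7.99 at 1 h, and 8.31, 8.55 and 8.54 at 6 h. All 3 groups were separate, with every 6 h array above every 1 h array. The difference of 6 h from 1 h was 0.44 ± 0.13 (SE, 95% interval 0.15 to 0.72, a fold of 1.35), which was not significant over all probe sets (limma adjusted p = 0.996, unadjusted 0.00695). Against control it stood at 1.34 at 1 h and 1.77 at 6 h.

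The CXC chemokines were as high at 1 h as at 6 h within the spread of the arrays. Cxcl10, an interferon-inducible attractant of T cells, measured 6.16, 6.17 and 5.97 in control, 7.11, 7.20 and 7.08 at 1 h, and 6.96, 7.12 and 7.04 at 6 h. The ketone arrays overlapped each other and all lay above control. Its difference of 6 h from 1 h was -0.09 ± 0.12 (95% interval -0.35 to 0.17). Cxcl11, which shares the receptor of Cxcl10, measured 6.59, 6.34 and 6.38 at 1 h and 6.47, 6.61 and 6.37 at 6 h, against 5.44 to 5.59 in control. Its difference was 0.05 ± 0.13 (-0.24 to 0.34), so a change of 1.41-fold in either direction lay outside the interval. Cxcl1, a neutrophil attractant, measured 7.42, 7.68 and 7.86 at 1 h and 7.25, 7.64 and 7.41 at 6 h, against 6.51 to 6.65 in control, with a difference of -0.22 ± 0.15 (-0.55 to 0.11). That Cxcl1 value was -0.12 without 1 h replicate 3, -0.13 without 6 h replicate 1 and -0.03 without both.

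Csrnp1 and Mt2A likewise overlapped between the exposures. Csrnp1, which encodes a nuclear factor of the early signalling response, measured 7.67, 7.52 and 7.72 at 1 h and 7.71, 7.63 and 7.69 at 6 h, against 6.65 to 6.73 in control. Its difference of 0.04 ± 0.10 had an interval of -0.19 to 0.27. Mt2A, which binds zinc and copper, measured 9.65, 10.01 and 9.84 at 1 h and 9.74, 9.78 and 9.68 at 6 h, against 8.99 to 9.19 in control, with a difference of -0.10 ± 0.10 (-0.33 to 0.13). In both genes the exposures overlapped and all 6 ketone arrays exceeded the controls.

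**Figure D1:**
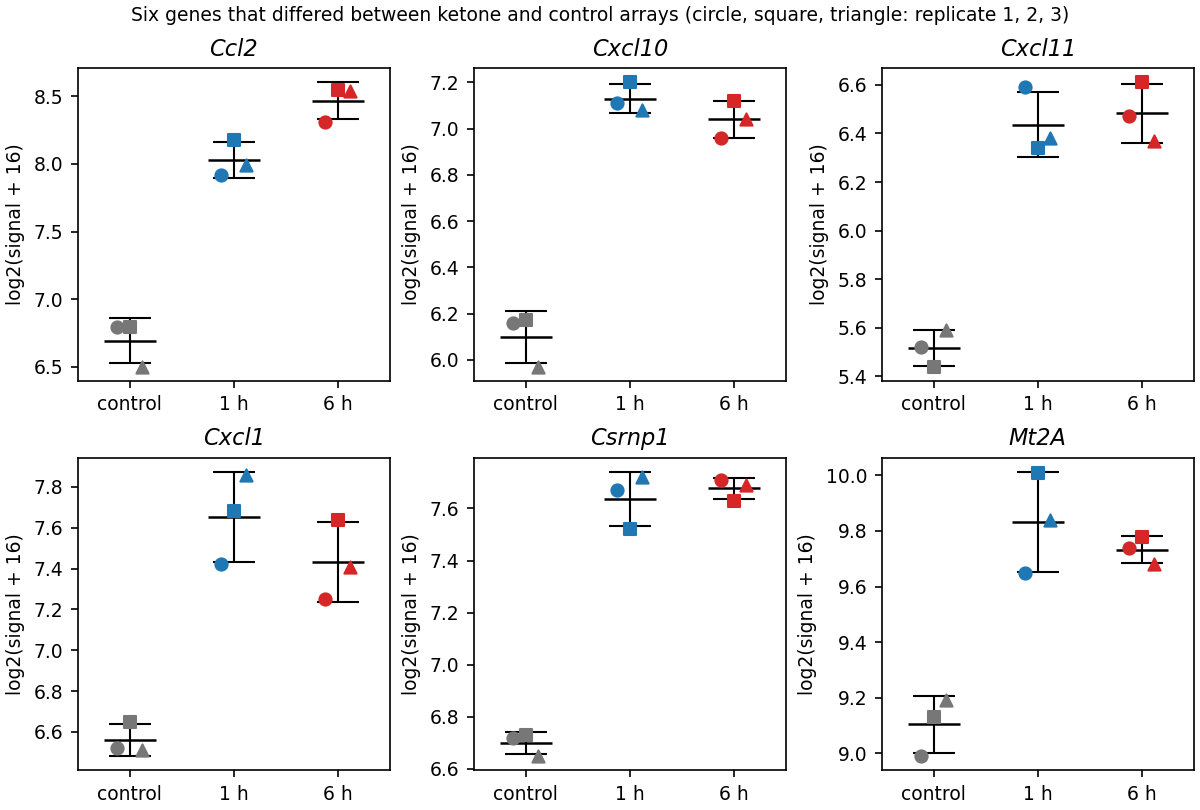
Level of 6 genes on each array as log2(signal + 16), by group (control, 1 h, 6 h of ketone bodies), with points for replicates and bars for the mean ± SD of 3 arrays; each vertical axis has its own range and does not start at 0. Ccl2 is the panel in which the 6 h arrays (8.31 to 8.55) all lie above the 1 h arrays (7.92 to 8.18), while in the other panels the exposures overlap.

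The remaining 3 probe sets that passed against control have no single gene name. One listed for Mt1f, Ttr and Mt1 measured 9.77, 9.97 and 9.90 at 1 h and 9.99, 10.11 and 10.06 at 6 h, with a difference of 0.17 ± 0.08 (-0.01 to 0.36). One listed for Atp5mc1l1 and Atp5mc1, a subunit of the ATP synthase ring, measured 10.68 to 10.71 in control, 11.27, 11.24 and 11.32 at 1 h, and 10.96, 11.18 and 10.98 at 6 h. All 6 h arrays of that probe set lay between control and 1 h, and the difference of -0.24 ± 0.07 (-0.39 to -0.08) was not significant after adjustment (limma adjusted p = 0.996). The probe set that was lower against control, listed with no gene, measured 7.55 to 7.75 in control, 6.28, 6.45 and 6.15 at 1 h, and 6.33, 6.69 and 6.48 at 6 h, a difference of 0.21 ± 0.14 (-0.10 to 0.51).

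A wider set of responders showed how the higher and the lower transcripts stood at each time. Of 54 probe sets (0.29% of those tested) higher with ketone bodies at an unadjusted p below 0.001, 30 (55.6%) were further from control at 6 h than at 1 h, beside 34.9% of the 10305 probe sets with any positive value. Their median was 0.58 at 1 h and 0.66 at 6 h against control. Of 17 probe sets (0.0913%) lower with ketone bodies at that threshold, 3 (17.6%) were further from control at 6 h, beside 38% of all 8320 with a negative value. Their median was -0.79 at 1 h and -0.50 at 6 h. The share among the higher probe sets turned with the threshold. At an unadjusted p below 0.05, 297 of 1039 higher probe sets (5.58% of those tested) were further from control at 6 h, or 28.6%, and 141 of 709 lower ones (3.81%), or 19.9%. These are counts without a test, and both thresholds were chosen after the values were seen. Without the 2 arrays farthest out, 18 of 38 higher probe sets at p below 0.001 were nearer to control at 6 h (47.4%, beside 60.8% of all higher), and 7 of 12 lower ones (58.3%, beside 53.6% of all lower), so the lower set was then close to its background.

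From the higher set, 9 further genes are given as examples, chosen after their values were seen and not standing for the whole set. Adamts1, a secreted protease, and Tfpi2, an inhibitor of proteases, differed by 0.33 and 0.42 between 6 h and 1 h, and Emp1, a membrane protein gene, by 0.36. Icam1, which holds leukocytes to vessel walls, differed by 0.15, Nfkbia, the inhibitor that ends NF-kB signalling, by 0.13, and the transcription factor Klf4 by -0.04. Atf3 and Ppp1r15a, a pair of stress-response genes, differed by 0.14 and 0.15, and Gadd45g, a growth arrest gene, by -0.02. None of these 9 differences passed by limma (adjusted p = 0.996 or more). A second Emp1 probe set gave 0.09.

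**Figure D2:**
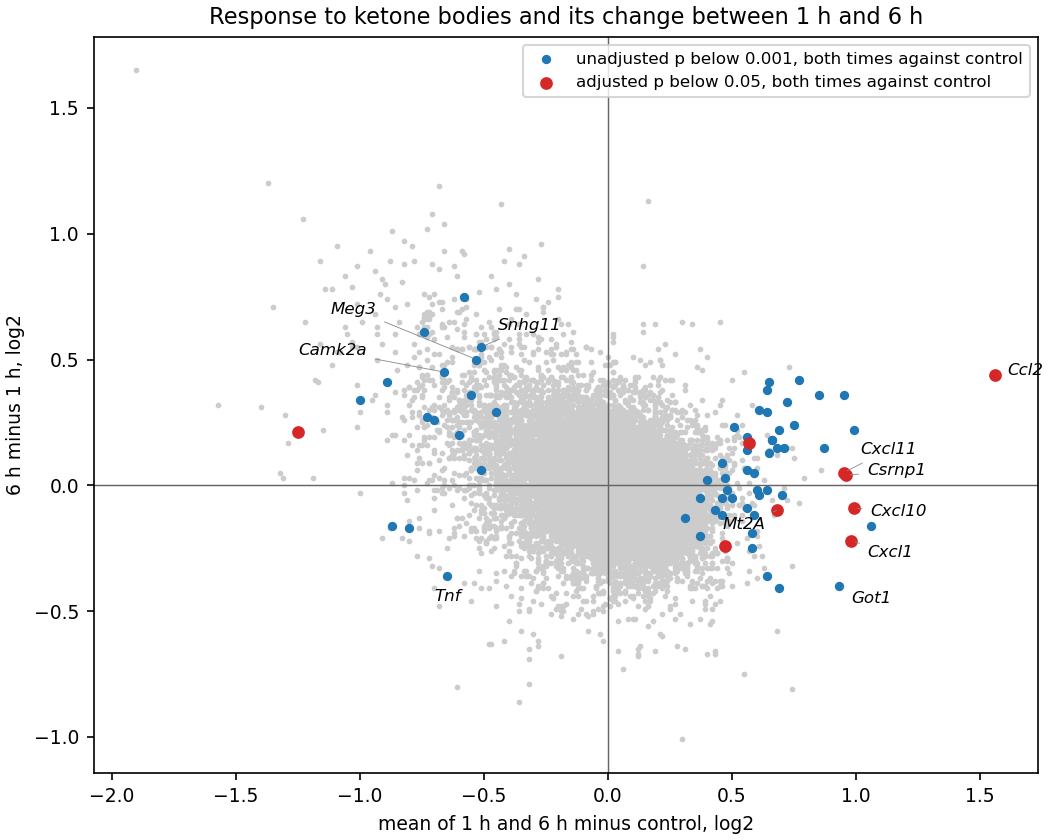
Each of 18625 probe sets by its mean response to ketone bodies (horizontal axis, log2) and its difference of 6 h from 1 h (vertical axis, log2), with red points for the 9 that passed against control and blue points for the others at an unadjusted p below 0.001. Ccl2 lies at the upper right with a difference of 0.44, Cxcl10, Cxcl11 and Csrnp1 lie near 0, and the lower responders on the left lie mostly above 0.

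The transcripts with the smallest p-values for a higher level at 6 h included noncoding RNAs and RNA-processing genes. Meg3, a long noncoding RNA of neurons, measured 7.53, 7.56 and 7.61 at 1 h and 8.25, 8.0 and 7.95 at 6 h, against 8.19 to 8.45 in control. Its 6 h arrays lay above the 1 h arrays and mostly below control, with a difference of 0.50 ± 0.12 (0.24 to 0.77, unadjusted p = 0.00176). A second Meg3 probe set differed by 0.55 ± 0.14 (0.24 to 0.85). Snhg11, a host transcript of small nucleolar RNA, measured 7.57, 7.66 and 7.34 at 1 h and 7.95, 8.12 and 8.14 at 6 h, against 8.18 to 8.44 in control. Its difference was 0.55 ± 0.12 (0.28 to 0.82), and its other 3 probe sets gave 0.57, 0.35 and 0.69. By their means, both noncoding RNAs were thus below control at 1 h and nearer to it at 6 h in each probe set tested. The limma adjusted p of 6 h against 1 h was 0.996 for every one. The second Meg3 probe set was above control at 6 h, by 0.18. The Snhg11 probe set with 0.35 overlapped control at 1 h. Those with 0.57 and 0.69 overlapped between the exposures, and the one with 0.69 had an interval of -0.09 to 1.46.

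Ccnl1, a cyclin that acts with splicing kinases, went the other way from control. It measured 7.65 to 7.78 in control, 7.91, 7.94 and 7.75 at 1 h, and 8.19, 8.25 and 8.53 at 6 h, a difference of 0.46 ± 0.12 (0.20 to 0.72) with all 6 h arrays highest. Lrrc14 had the same order: 7.08, 7.12 and 7.22 at 1 h, against 7.0 to 7.10 in control, and 7.80, 7.66 and 7.58 at 6 h, a difference of 0.54 ± 0.11 (0.30 to 0.78). Hnrnpa1, a splicing regulator, measured 7.81, 7.94 and 7.70 at 1 h and 8.16, 8.50 and 8.23 at 6 h in 1 probe set (0.48 ± 0.13), while its other probe sets gave 0.22 and 0.09. Ep300, a histone acetyltransferase, measured 7.61, 7.47 and 7.57 at 1 h and 8.29, 7.97 and 8.17 at 6 h, against 7.76 to 8.44 in control (0.59 ± 0.17).

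The kinase genes Camk2a and Camk2b and the peptide gene Nts were lower than control at 1 h. Camk2a, the kinase subunit of excitatory synapses, measured 6.26 to 6.37 in control, 5.42, 5.36 and 5.46 at 1 h, and 5.97, 5.72 and 5.92 at 6 h. In this probe set the arrays fell into 3 separate levels with 6 h between the others, and the difference was 0.45 ± 0.13 (0.17 to 0.73). Its 1 h signals were near the filter level of 5.21, and the difference was 0.23 with a pseudocount of 64. The brightest Camk2a probe set measured 10.15, 10.51 and 10.19 at 1 h and 10.84, 10.29 and 10.61 at 6 h, with overlapping exposures. Its difference was 0.29 ± 0.14 (-0.01 to 0.60), and 0.12 without the 2 arrays farthest out. The other Camk2a probe sets gave 0.23 and 0.17. Camk2b, its partner subunit, measured 11.41, 11.32 and 11.42 at 1 h and 11.56, 11.56 and 11.70 at 6 h, against 11.62 to 11.74 in control. The Camk2b difference was 0.22 ± 0.06 (0.08 to 0.36), and 0.13 with median centring. Its other probe set gave 0.28 ± 0.40 (-0.61 to 1.16), with overlapping exposures. Nts, the precursor of neurotensin, measured 7.61, 7.76 and 7.57 at 1 h and 7.99, 8.16 and 7.97 at 6 h, against 8.07 to 8.19 in control (0.39 ± 0.11). The neuropeptides Npy, Sst, Vip and Cck, of the interneuron marker list and named after their values were seen, had the opposite sign: 0.17, 0.37, 0.32 and 0.14 against control at 1 h, and -0.16, -0.13, -0.12 and -0.11 for 6 h against 1 h. The adjusted p of 6 h against 1 h was 0.996 for Camk2a, Camk2b and Nts.

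The smallest p-values for a lower level at 6 h belonged to genes with no common list. Rxrg, a retinoid receptor, measured 6.84, 6.89 and 7.02 at 1 h and 6.48, 6.30 and 6.49 at 6 h, on either side of the control range of 6.67 to 6.72. Its difference was -0.50 ± 0.11 (-0.75 to -0.24). Dact2, a modulator of Wnt and TGF-beta signalling, measured 9.47, 9.36 and 9.61 at 1 h and 9.24, 9.0 and 8.91 at 6 h, against 9.08 to 9.11 in control (-0.43 ± 0.11). Rab5c, a GTPase of early endosomes, measured 8.28, 8.09 and 8.33 at 1 h and 7.68, 7.75 and 7.61 at 6 h, against 7.28 to 7.78 in control (-0.55 ± 0.14). Rab5c and Dact2 were thus above control at 1 h and back among the control values, or close to them, at 6 h.

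Other lower values rested on weak signals or on 1 probe set. Fam171a2 measured 5.48, 5.53 and 5.71 at 1 h and 5.03, 4.40 and 4.72 at 6 h, under the filter level of 5.21, so its difference of -0.86 ± 0.18 moved between -1.61 and -0.36 over the alternatives. Ccl19, a chemokine that guides lymphocytes, measured 5.73, 5.64 and 6.10 at 1 h and 5.27, 5.14 and 5.09 at 6 h (-0.66 ± 0.16), between -0.99 and -0.32 over the alternatives. Tbl2 differed by -0.80 ± 0.20 in 1 probe set and by 0.11 in another, and Pacsin1, a gene of synaptic endocytosis, by -0.63 ± 0.17 and 0.31. A pair of probe sets with no gene name had the lowest p-values of all: -1.01 ± 0.15 (10.16, 9.87 and 10.13 at 1 h, 8.94, 9.34 and 8.87 at 6 h) and 0.75 ± 0.12 (5.56, 5.36 and 5.48 at 1 h, 6.21, 6.2 and 6.25 at 6 h), each with an adjusted p of 0.689 by limma.

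**Figure D3:**
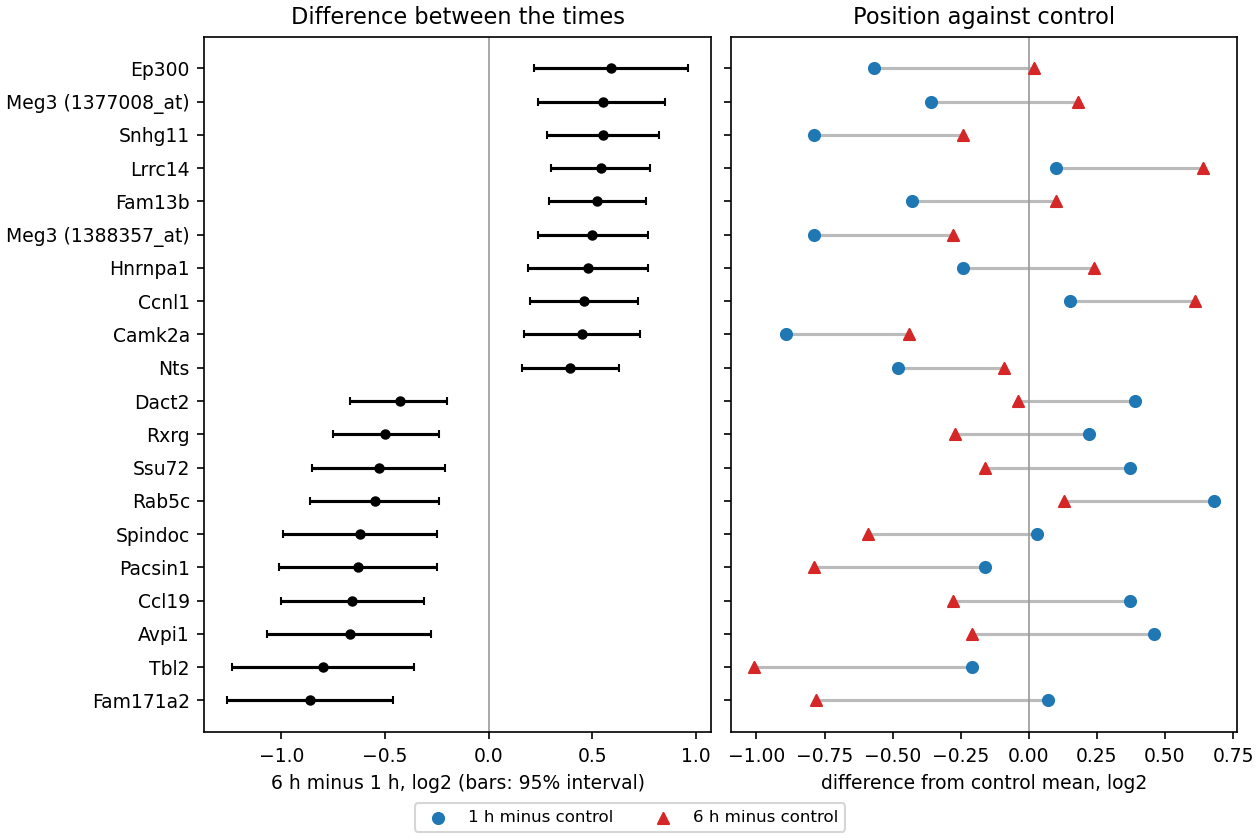
The 10 named probe sets with the smallest p for a higher and the 10 for a lower level at 6 h, each with non-overlapping groups; the left panel shows the difference of 6 h from 1 h (log2, bars are 95% intervals) and the right panel the 1 h and 6 h means minus the control mean. Meg3, Snhg11, Camk2a and Nts are lowest at 1 h and nearer to 0 at 6 h, while Lrrc14 and Ccnl1 are near 0 at 1 h and higher at 6 h; adjusted p was 0.996 for all 20.

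Gene lists were described by their counts and medians beside all 10707 named genes, of which 4585 (42.8%) had a positive difference of 6 h from 1 h, with a median of -0.026. Against control, the median of all named genes was 0.066 at 1 h and 0.037 at 6 h, so values of that size are not particular to a list. The immediate early and glucocorticoid lists, each with a median of 0.064 at 1 h, were at that level. In none of the 34 lists did a member pass by limma. The list medians of the exposures were separate in 6 lists, 4 with every 6 h array above every 1 h array and 2 with every one below, and overlapped in the others. Of these lists, the immediate early, glucocorticoid, glutamate and translation lists overlapped by their summed linear signal. The noncoding and splicing list was separate by that measure too, and the sums of the interneuron list met at 11900. Signs given for lists were the same in 22 of 22 alternatives unless stated.

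Immediate early genes, which answer signalling within minutes, were higher at 6 h for 32 of 44 members, with a median of 0.11. The list median against control was 0.07, 0.13 and 0.11 on the 1 h arrays and 0.19, 0.17 and 0.19 on the 6 h arrays, so the groups did not overlap. Fosb, a partner of Jun in the AP-1 factor, measured 8.04, 7.96 and 8.52 at 1 h and 8.95, 8.43 and 8.50 at 6 h, against 7.79 to 7.91 in control, a difference of 0.45 ± 0.17 (0.07 to 0.84) with overlapping groups. Maff, another AP-1 partner, measured 5.86, 5.49 and 5.67 at 1 h and 6.2, 5.93 and 5.98 at 6 h, against 4.55 to 5.12 in control, a difference of 0.36 ± 0.18 (-0.04 to 0.77). Fosb and Maff both stood further from control at 6 h in their means. The Maff controls lay under the filter level of 5.21, so Maff passed the filter through its ketone arrays. Its difference was 0.20 with a pseudocount of 64 and 0.23 with array weights.

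The classical activity markers of the list did not differ between the exposures beyond their spread. Fos measured 11.09, 11.23 and 10.84 at 1 h and 11.06, 11.37 and 11.26 at 6 h, within or next to the control range of 11.05 to 11.40 (difference 0.18 ± 0.12, interval -0.10 to 0.45). Egr1 differed by 0.10 ± 0.12 (-0.17 to 0.36), though its sign was lost without 1 h replicate 1. Arc, which acts at activated synapses, differed by -0.22 ± 0.13 (-0.51 to 0.06). The receptor gene Nr4a1 was above control in both exposures, with 9.26, 9.41 and 9.33 at 1 h and 9.60, 9.24 and 9.41 at 6 h against 8.77 to 9.05, and differed by 0.09 ± 0.11 (-0.17 to 0.34).

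Genes induced by glucocorticoids were higher at 6 h for 12 of 16 members, with a median of 0.13. Per array the list median was 0.03, 0.09 and 0.05 at 1 h and 0.19, 0.13 and 0.16 at 6 h. Pdk4, the kinase that restrains pyruvate oxidation and is also a target of fatty acid sensors, measured 5.54 to 5.92 in control, 6.04, 6.34 and 6.25 at 1 h, and 6.50, 6.49 and 6.54 at 6 h. Its 3 groups did not overlap, with 6 h highest, and the difference of 6 h from 1 h was 0.30 ± 0.14 (-0.02 to 0.61). Per1, a clock gene that glucocorticoids induce, differed by 0.32 ± 0.19 with 1 high array, 6 h replicate 1 at 7.85. Sgk1 and Fkbp5, common markers of the hormone's action, differed by 0.15 ± 0.09 and 0.12 ± 0.12. Ddit4, which damps growth signalling, was lower at 6 h, with 8.76, 8.72 and 8.92 at 1 h and 8.25, 8.27 and 8.41 at 6 h (-0.49 ± 0.16).

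Cytokine and NF-kB response genes were higher at 6 h for 14 of 21 members, with a median of 0.097, but their arrays overlapped (0.11, 0.30 and 0.20 at 1 h, 0.22, 0.32 and 0.07 at 6 h). Il1b, a main inflammatory cytokine of microglia, measured 4.67, 5.39 and 5.15 at 1 h, near control at 4.79 to 5.18, and 5.57, 5.72 and 5.89 at 6 h. Every 6 h array exceeded every other array, and the difference of 0.65 ± 0.20 (0.20 to 1.10) rested on signals near the filter level. It ranged from 0.30 to 1.07 over the 19 of 22 alternatives that kept the gene. The means of 4.95 in control and 5.07 at 1 h lay under the filter level of 5.21. Il1b thus passed the filter only through its 6 h arrays (mean 5.73), so the separation and the interval are no independent support. Tnf, another such cytokine, had the opposite sign: 7.59 to 7.74 in control, 7.08, 7.10 and 7.41 at 1 h, and 6.91, 6.90 and 6.69 at 6 h, a difference of -0.36 ± 0.13 (-0.65 to -0.07). Its second probe set gave -0.46 ± 0.31. Neither cytokine passed by limma (adjusted p = 0.996).

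The chemokine list as a whole had 8 of 14 members higher at 6 h and a median of 0.032, whose sign was lost with the filter at the 60th percentile and without the 2 arrays farthest out. Interferon-response genes had 7 of 18 higher and a median of -0.054, whose sign was lost without those 2 arrays and without 1 h replicate 3. Microglial and macrophage markers were lower at 6 h for 9 of 12 members, with a median of -0.10. Their list median was 0.32, 0.16 and 0.34 at 1 h and 0.15, 0.17 and 0.05 at 6 h against control, so the exposures overlapped by this measure. They did not overlap by summed signal, which ran from 1830 to 1950 at 1 h, 1690 to 1800 at 6 h and 1600 to 1770 in control. Aif1, a marker of microglia, measured 7.64, 7.85 and 7.69 at 1 h and 7.50, 7.45 and 7.20 at 6 h, against 6.63 to 7.30 in control (-0.34 ± 0.17). Tmem119, specific to resident microglia in brain, measured 7.33, 7.28 and 7.30 at 1 h and 7.18, 7.0 and 6.98 at 6 h, against 6.77 to 6.96 in control (-0.25 ± 0.11). The part of cell makeup in the inflammatory values was not tested.

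Noncoding RNAs and regulators of SR-type splicing were higher at 6 h for 20 of 25 members, with a median of 0.12. The list was chosen with earlier results of these data known, and it holds Meg3 and Ccnl1, given above for their small p-values. Its count and its separation are therefore no independent support for those genes. The list median was -0.05, -0.13 and -0.08 at 1 h and 0.03, 0.05 and 0.06 at 6 h. Glutamate receptors and transporters were higher for 21 of 26, with a median of 0.074 and list medians of -0.10, -0.10 and -0.08 at 1 h and 0.05, 0.04 and 0.02 at 6 h. In both lists the exposures were separate by their list medians, and the 6 h arrays lay within or near the control values of -0.05 to 0.08. Glul, which makes glutamine from glutamate in astrocytes, measured 11.17, 11.19 and 11.03 at 1 h and 11.29, 11.34 and 11.31 at 6 h (0.18 ± 0.07), while its other probe sets gave 0.06 and -0.08. Grik2, a kainate receptor subunit, measured 5.99, 6.43 and 5.52 at 1 h and 6.09, 6.71 and 7.11 at 6 h, against 6.82 to 6.95 in control (0.66 ± 0.27). At 6 h its lowest value was on the array with the highest 3'/5' beta-actin ratio (2.55), whereas at 1 h its highest value was on the array with the highest ratio (2.13). With that ratio as a covariate, added after seeing the data, the Grik2 difference was 0.65. The mean ratio was 1.84 at 1 h and 1.82 at 6 h, so this covariate could hardly move the difference. The part of RNA quality in it was not tested. The difference was 0.43 without 1 h replicate 3 and 0.42 without 6 h replicate 3.

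Transcripts of mitochondria, ribosomes and the proteasome were above control at 1 h and lay between control and 1 h at 6 h. Oxidative phosphorylation subunits, which make ATP, were lower at 6 h for 64 of 76 members (median -0.10), with a list median of 0.17 at 1 h and 0.085 at 6 h against control. Mitochondrial ribosomal proteins were lower for 67 of 73 (median -0.089, from 0.22 to 0.11), cytosolic ribosomal proteins for 39 of 43 (median -0.089) and proteasome subunits for 34 of 42 (median -0.074). At 6 h the proteasome list stood at 0.05 against control, close to the 0.037 of all named genes. In all 4 lists the arrays overlapped, because 6 h replicate 2 sat with the 1 h arrays: for mitochondrial ribosomal proteins the list medians were 0.22, 0.19 and 0.23 at 1 h and 0.08, 0.22 and 0.06 at 6 h. For oxidative phosphorylation they were 0.14, 0.20 and 0.16 at 1 h and 0.06, 0.14 and 0.03 at 6 h.

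The first 4 members given here were taken for their small p-values, and they had small differences with narrow errors. Atp5mg, an ATP synthase subunit, measured 11.60, 11.57 and 11.63 at 1 h and 11.38, 11.40 and 11.44 at 6 h, against 11.18 to 11.40 in control (-0.19 ± 0.07). Cox7c, of cytochrome oxidase, measured 11.35, 11.53 and 11.46 at 1 h and 11.28, 11.30 and 11.15 at 6 h (-0.20 ± 0.07). Mrpl13, of the mitochondrial ribosome, measured 9.13, 9.21 and 9.23 at 1 h and 8.89, 9.0 and 8.93 at 6 h, against 8.75 to 8.89 in control (-0.25 ± 0.09). Psma2, a proteasome subunit, measured 10.22, 10.48 and 10.34 at 1 h and 9.84, 10.21 and 10.11 at 6 h (-0.29 ± 0.11). In these 4 genes no 6 h array reached a 1 h array, and each had an adjusted p of 0.996. Rpl39, the only cytosolic ribosomal member at an unadjusted limma p below 0.05, had the opposite sign. It measured 5.94, 5.69 and 5.93 at 1 h and 6.30, 6.83 and 6.23 at 6 h, against 5.53 to 6.51 in control (0.60 ± 0.26). Translation factors were lower at 6 h for 39 of 59, and their median of -0.034 was close to the -0.026 of all named genes. Their list medians were separate, with 0.08, 0.10 and 0.06 at 1 h and 0.04, 0 and 0.02 at 6 h. All named genes had similar medians of 0.05, 0.06 and 0.10 at 1 h. The summed signal of the translation factors overlapped, with 45800 to 46900 at 1 h and 45000 to 46500 at 6 h. NRF2 antioxidant genes had the same sign, lower at 6 h for 17 of 21 (median -0.091), with 0.14, 0.25 and 0.10 at 1 h and 0.04, 0.21 and 0.07 at 6 h.

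**Figure D4:**
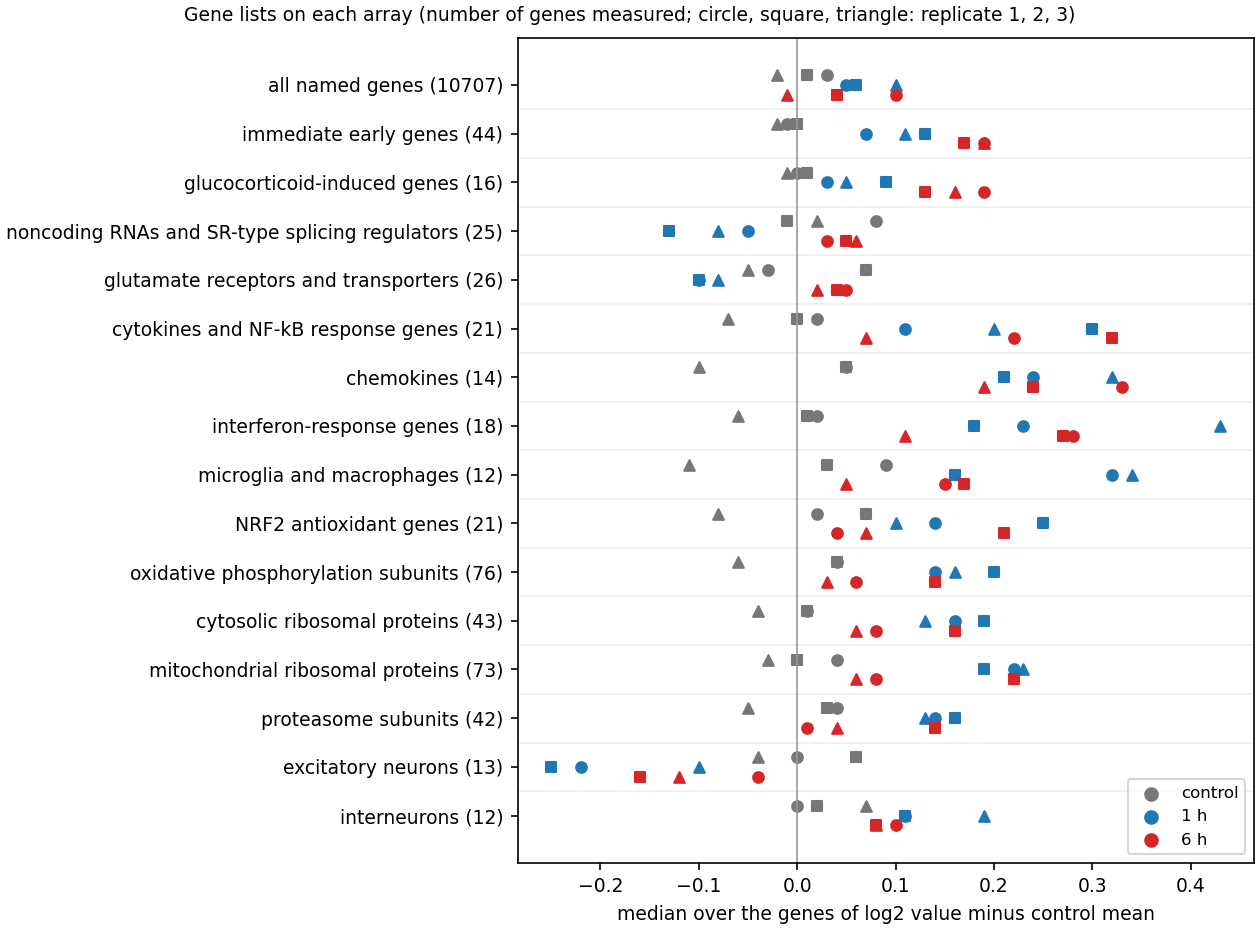
Median over the genes of each list of the log2 value minus the control mean, on each of the 9 arrays (grey control, blue 1 h, red 6 h; number of genes in brackets). Immediate early, glucocorticoid-induced, noncoding and splicing, and glutamate lists have every 6 h array above every 1 h array, while the mitochondrial, ribosomal and proteasome lists lie lower at 6 h with 1 array, replicate 2, among the 1 h values.

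Genes that handle ketone bodies showed no common direction: 5 of 10 members were higher at 6 h and the median was -0.011, whose sign was lost in 6 of 22 alternatives. Oxct1, which activates acetoacetate, measured 10.53, 10.71 and 10.50 at 1 h and 10.54, 10.66 and 10.68 at 6 h, against 10.61 to 10.71 in control (0.05 ± 0.08, interval -0.12 to 0.22). Bdh1, which oxidises beta-hydroxybutyrate, differed by -0.19 ± 0.16 and 0.02 ± 0.17 in its probe sets. The transporter Slc16a1 measured 8.50, 8.50 and 8.66 at 1 h and 8.70, 8.67 and 8.57 at 6 h (0.10 ± 0.10, interval -0.13 to 0.32), and the neuronal transporter Slc16a7 differed by 0.36 ± 0.28 (-0.26 to 0.98). For Oxct1 and Slc16a1 a change of 1.41-fold lay outside the interval, and for Slc16a7 it did not.

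Fatty acid oxidation genes and targets of PPAR alpha, a fatty acid sensor, were higher at 6 h for 10 of 26 members, close to the share of all genes, with a median of -0.027. Beside Pdk4, Angptl4, a secreted inhibitor of lipoprotein lipase, measured 6.25 to 6.47 in control, 6.75, 6.50 and 6.70 at 1 h, and 6.85, 6.85 and 6.79 at 6 h (0.18 ± 0.12, interval -0.09 to 0.46). Plin2, a coat protein of lipid droplets, measured 6.64, 6.65 and 6.62 at 1 h and 6.36, 6.26 and 6.45 at 6 h, against 6.18 to 6.45 in control (-0.28 ± 0.12), and its other probe set gave -0.12. Got1, the cytosolic aspartate aminotransferase of the malate-aspartate shuttle, measured 9.41 to 9.72 in control, 10.78, 10.51 and 10.79 at 1 h, and 9.97, 10.61 and 10.32 at 6 h, a difference of -0.40 ± 0.16 (-0.75 to -0.05), which was -0.23 without 6 h replicate 1 and -0.19 without the 2 arrays farthest out. Pdk4 and Angptl4 were thus highest at 6 h, while Plin2 and Got1 were highest at 1 h, none of them past the test.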

How the data were processed

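Gene expression was measured on 9 rat arrays, 3 each of control, 1 h and 6 h of ketone bodies, grouped by the labels. The deposited values are linear signal intensities in 1 table of 31099 probe sets; the software behind them is not given in the sources used here. The mean without the lowest and highest 2% was 150 on every deposited array, so the authors' values had been brought to a common scale. With no counts behind them, the number of arrays limits the precision.

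From these, 57 control probe sets were dropped, log2(signal + 16) was taken, and arrays were quantile-normalized. Probe sets with a mean under the 40th percentile (log2 5.21) were left out, which left 18625, of which 14450 named a single gene, 315 more than 1 and 3860 no gene. Names came from GEO's platform annotation, with 20758 of its Entrez numbers matched to a RefSeq gene table, 68 not matched and 0 symbols changed. One fit with limma 3.58.1 in R 4.3.3 used 1 coefficient per group, 6 residual degrees of freedom, an intensity trend and Benjamini-Hochberg adjustment at 0.05. The replicate numbers showed no common pairing of the arrays. Deviations of same-numbered 1 h and 6 h arrays correlated at -0.09, 0.53 and -0.36. For control and 1 h the values were 0.09, -0.10 and -0.35, and for control and 6 h 0.54, 0.03 and 0.26. The replicate 2 arrays of 1 h and 6 h lay together on the second principal component (17% of the variance). Their scores were -27.2 and -21.9, against -3.4 to 14.8 on the others.

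Named genes are the 10 single-gene probe sets with the smallest p in each direction whose groups did not overlap, those that passed in a comparison with control (at most 30), the 2 smallest p per list, and a set of fixed genes of ketone, cytokine, immediate early, clock and synaptic function; others are said to be chosen later. A gene with several probe sets is counted in lists by its brightest. Members and lists were chosen with earlier results of these data known. Steps were tested on simulated data. Alternatives were the scaling, pseudocount, filter, trend, array weights, replicate block, groups in the fit, probe sets per gene and each array left out. Leaving out 2 arrays and a 3'/5' covariate were added after seeing the data. Figures were drawn with matplotlib. One gene of the fixed set is not reported here.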

Additional observations from a re-analysis of the deposited data

How the results depend on the processing

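The count of probe sets passing for 6 h against 1 h was 0 in every setting run, array weights included. Its count at an unadjusted p below 0.05, 507 in the report, was 1211 with no filter, 1296 with array weights and 908 without the 2 arrays farthest out; leaving out 1 array gave 380 (without 1 h replicate 3) to 1572 (without 6 h replicate 1). For both exposures against control, 9 in the report, the count was 5 with the values as deposited, without the trend and without the 2 arrays, 4 with no filter and with the 3'/5' covariate, 33 with array weights and 20 with 1 probe set per gene. Leaving out 1 array gave 1 (without control 1, 2 or 3) to 9, with 4 without 1 h replicate 2 or 3 or 6 h replicate 2. For 1 h against control, 6 here, it was 3 with no filter, 25 with array weights, 10 with 1 probe set per gene, 0 without the 2 arrays and 0 with the covariate, and 0 to 10 with 1 array left out. For 6 h against control, 5 here, it was 2 as deposited and with no filter, 1 with median centring, with only the compared groups, without the 2 arrays and with the covariate, 11 with 1 probe set per gene, and 1 with any 1 array left out. With the replicate number as a block, 6 h against 1 h gave 0 calls and 538 unadjusted, although the numbers showed no common pairing. The comparisons with control then gave 2 (both exposures), 2 (1 h) and 1 (6 h). The cause of these shifts was not tested. Of 2468 values of named genes under the alternatives, 0 passed, and the median over all probe sets stayed between -0.029 and 0.002. The number of arrays limits the precision for single genes, with a median half-width of 0.34 for the interval of the difference. These intervals are not adjusted for the number of probe sets, so 0.34 is not the smallest difference that could pass. Larger differences failed by limma, such as 0.54 for Lrrc14 (adjusted p = 0.996) and -1.01 for a probe set with no gene name (adjusted p = 0.689). Several low signals, such as Fam171a2 and Il1b, depend on the pseudocount.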

Other observations

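Interneuron markers had a median difference of 6 h from 1 h of -0.12, with list medians of 0.11, 0.11 and 0.19 at 1 h and 0.10, 0.08 and 0.08 at 6 h against control, so the arrays were separate although 5 of 12 members were higher. Pvalb, the calcium buffer of fast-spiking interneurons, measured 8.64 to 9.08 in control, 9.50, 9.61 and 9.31 at 1 h, and 9.11, 9.10 and 9.03 at 6 h (-0.40 ± 0.13). Reln, secreted by another interneuron class, had the opposite sign, with 8.93, 9.05 and 9.16 at 1 h and 9.18, 9.43 and 9.39 at 6 h (0.29 ± 0.11), and its other probe set gave -0.11. Excitatory neuron markers were higher at 6 h for 10 of 13, with a median of 0.053, whose sign was lost with array weights, without 1 h replicate 2 and without 6 h replicate 1.

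Clock genes were higher at 6 h for 13 of 19, with a median of 0.051 and overlapping arrays. Bhlhe40, a repressor in the clock, measured 7.45, 7.05 and 7.54 at 1 h and 7.56, 7.70 and 7.92 at 6 h (0.38 ± 0.17), while the core gene Per2 measured 7.07, 7.18 and 7.20 at 1 h and 7.16, 7.18 and 7.22 at 6 h (0.03 ± 0.11). Potassium channels were higher for 15 of 44, with a median of -0.062 whose sign was lost without 6 h replicate 2. Kcnj4, an inward rectifier, measured 7.21 to 7.32 in control, 7.80, 7.76 and 7.79 at 1 h, and 7.66, 7.48 and 7.42 at 6 h (-0.27 ± 0.11), and its other probe set gave -0.66.

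Choroid plexus and ependymal markers were higher at 6 h for 5 of 7, with a median of 0.12; Kl, Otx2 and Kcnj13 lay below the filter. Ttr, their most abundant product, measured 12.15 to 12.19 in control, 11.87, 12.01 and 12 at 1 h, and 12.09, 12.19 and 12.17 at 6 h (0.19 ± 0.06). The Ttr difference was 0.11 with the values as deposited and 0.08 with median centring.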
